A study of Mus musculus with 6 samples.

Results

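Nitric oxide synthesis and the cyclic GMP signal that follows it were described through 10 genes, taken by name from the 56941 genes of the count table. They were the nitric oxide synthases Nos3 and Nos2, the cofactor enzyme Gch1, the arginases Arg1 and Arg2, the dimethylarginine hydrolases Ddah1 and Ddah2, the soluble guanylate cyclase subunits Gucy1a1 and Gucy1b1, and the phosphodiesterase Pde5a. All 10 passed the filter on low counts. The libraries labelled EC-KO came from mice that lack Fundc1 in the endothelium (3 libraries, genotype FUNDC1-KO). They were set against 3 libraries labelled FL, whose genotype is FUNDC1-FLOX, the floxed allele. Both groups were polyA RNA of primary endothelial cells that magnetic beads had pulled from mouse lungs, kept in endothelial medium with serum and cleared of dead cells. The sample titles name the cells PAECs. Fundc1 encodes a mitophagy receptor of the outer mitochondrial membrane. The sources used here do not give the Cre driver, the strain, the age of the mice, or whether each library is a separate animal. The p-values therefore measure the spread between these libraries, which may be technical.

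Endothelial nitric oxide synthase makes nitric oxide from arginine and needs tetrahydrobiopterin as a cofactor. Arginases compete for the arginine, and methylated arginines block the synthase until they are broken down by the dimethylarginine hydrolases. Nitric oxide diffuses into neighbouring smooth muscle and activates soluble guanylate cyclase, the cyclic GMP relaxes the vessel, and phosphodiesterase 5 ends the signal. In the lung circulation this pathway lowers vascular tone, and drugs that inhibit phosphodiesterase 5 or stimulate guanylate cyclase are used in pulmonary hypertension.

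Fundc1 itself was at 14.1, 18.2 and 12.8 CPM (counts scaled by TMM to a common library total) in EC-KO 1, 2 and 3 and at 25.1, 31.96 and 30.7 CPM in FL 1, 2 and 3. It was lower without overlap (-0.96 ± 0.19, SE; adjusted p = 0.00796 in edgeR), and the transcript was still present in EC-KO libraries. Libraries held 26.7 M to 34.3 M counts. Markers of other lung cells moved with genotype, and their part in the results below was not tested. Of 20 endothelial markers 12 were called lower and 0 higher (summed level 4463 to 8246 CPM in EC-KO, 10938 to 14917 CPM in FL). Of 14 smooth muscle and pericyte markers 9 were lower (316 to 461 CPM in EC-KO, 648 to 906 CPM in FL). Of 14 macrophage and monocyte markers 12 were lower (3226 to 3942 CPM in EC-KO, 6593 to 10594 CPM in FL), as were 6 of 7 neutrophil markers (377 to 443 CPM in EC-KO, 998 to 2555 CPM in FL). Of 15 epithelial markers 14 were higher (11455 to 17055 CPM in EC-KO, 1903 to 4458 CPM in FL), as were 8 of 12 fibroblast markers (1292 to 3628 CPM in EC-KO, 682 to 1009 CPM in FL). No marker of these lists was at 0 in all libraries. In such mixed RNA, fewer cells of a type and less RNA per cell cannot be told apart. EC-KO 2 had the highest endothelial sum among the EC-KO libraries. EC-KO 2 and FL 2 also held lower levels of rod photoreceptor transcripts than the other 4 libraries. Values without both, an alternative chosen after seeing the data, are therefore given where they turn a sign or change a call.

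Downstream of nitric oxide, the receptor subunits and the phosphodiesterase were lower in EC-KO libraries, as were both arginases and Ddah1, while the cofactor enzyme Gch1 was higher. Nos3, the endothelial synthase, did not pass the test. Of the 10 genes 6 were called lower and 1 higher in edgeR's quasi-likelihood test at an adjusted p under 0.05, beside a background of 13.5% of all 18562 tested genes lower and 13.5% higher (27.1% in either direction). The groups did not overlap in 8 of the 10 genes, beside 45.4% of all tested genes. EC-KO lay below FL in 7 of them (background 22.8%) and above FL in 1 (background 22.6%). The median log2 fold change (EC-KO over FL) was -1.24 over the 10 genes and 0.03 over all tested genes. The number called lower was 4 without EC-KO 1, EC-KO 3 or FL 2 and 7 without EC-KO 2. The number called higher was 0 without EC-KO 1, EC-KO 3, FL 1, FL 2 or FL 3. Calls over all tested genes moved too, from 5029 with all 6 libraries. Without EC-KO 1, EC-KO 3, FL 1, FL 2 and FL 3 they numbered 2832, 3422, 4366, 2626 and 2547. They numbered 6740 without EC-KO 2.

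**Figure D1:**
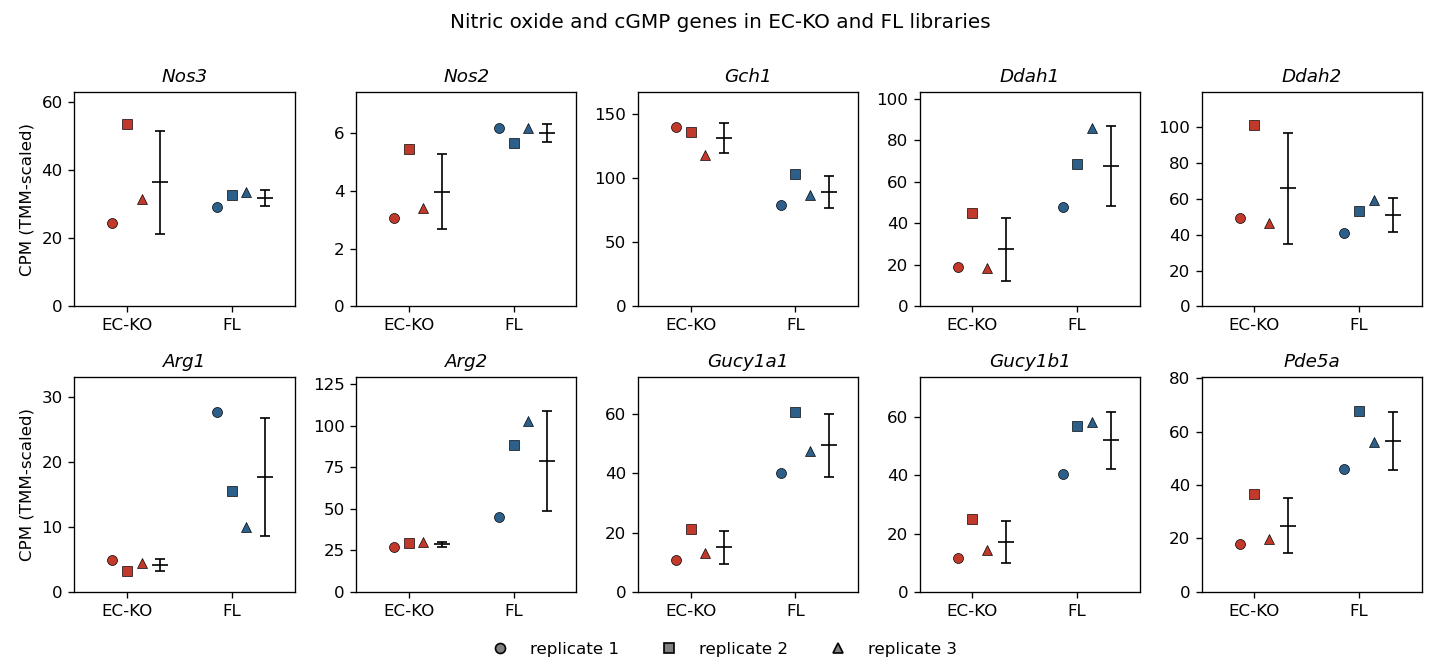
CPM of each gene (vertical axes, TMM-scaled, starting at 0) in the 3 EC-KO libraries (red) and 3 FL libraries (blue), with the symbol giving the replicate number and the bar the mean ± SD. The groups overlap for Nos3 and Ddah2 only, and EC-KO 2 (square) is the highest EC-KO library for Nos3, Nos2, Ddah1, Ddah2, Gucy1a1, Gucy1b1 and Pde5a.

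Among the nitric oxide synthases, Nos3 (ENSMUSG00000028978, chromosome 5, 24569808 to 24589472, plus strand; gene positions here are as the count table gives them, and its genome build could not be settled) was at 24.6, 53.5 and 31.4 CPM in EC-KO 1, 2 and 3 and at 29.1, 32.8 and 33.5 CPM in FL 1, 2 and 3. The groups overlapped, since EC-KO 2 lay above all FL libraries and the other EC-KO libraries lay below the FL median. The log2 fold change was 0.20 ± 0.27 (SE, adjusted p = 0.613), and it was -0.21 without EC-KO 2 (adjusted p = 0.324) and -0.18 without EC-KO 2 and FL 2 (adjusted p = 0.514). Exons of the antisense locus Gm15587 share 25.2% of the exon bases of Nos3, and those of Atg9b, on the same opposite strand, share 7.12%. The sources used here do not say whether counting used strand, so reads in those stretches cannot be assigned to either gene with certainty. Gm15587 was at 1.59, 3.45 and 2.41 CPM in EC-KO libraries and at 0.455, 0.825 and 0.518 CPM in FL libraries, and was called higher (2.04 ± 0.42, adjusted p = 0.00856 in edgeR). Atg9b, an autophagy gene, did not pass the test (-0.57, adjusted p = 0.305 in edgeR).

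Set against endothelial markers, 12 of which were lower, Nos3 took a larger share in EC-KO libraries. Nos3 counts equalled 0.551%, 0.648% and 0.696% of the summed CPM of the 20 endothelial markers in EC-KO 1, 2 and 3 and 0.266%, 0.259% and 0.225% in FL 1, 2 and 3. Every EC-KO library, EC-KO 2 included, lay above every FL library, a mean difference of 1.33 on the log2 scale. The exact permutation test gave p = 0.1 (two-sided), the smallest that 3 against 3 libraries allow, and 0.178 after Benjamini-Hochberg adjustment over the 16 ratios computed. Of the 20 markers, 19 had a log2 fold change below that of Nos3 and 1 (Ecscr, 0.20) lay just above it, with a range from -3.17 to 0.20.

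Nos2 (ENSMUSG00000020826, chromosome 11, 78811613 to 78851080, plus strand), the inducible synthase of activated macrophages and other cells, was at 3.06, 5.46 and 3.40 CPM in EC-KO 1, 2 and 3 and at 6.18, 5.65 and 6.18 CPM in FL 1, 2 and 3. All EC-KO values lay below all FL values, by little in EC-KO 2. The difference did not pass the test (-0.60 ± 0.27 SE, adjusted p = 0.128), but was called lower without EC-KO 2 (-0.92, adjusted p = 0.0143 in edgeR) and without EC-KO 2 and FL 2 (-0.95, adjusted p = 0.0295 in edgeR). Between 106 and 203 reads per library lay behind these levels. Relative to macrophage and monocyte markers the order was the other way round, with 0.0949%, 0.138% and 0.1002% of the marker sum in EC-KO libraries and 0.0583%, 0.0599% and 0.0938% in FL libraries, where FL 3 came close to EC-KO 1 (exact permutation p = 0.1, adjusted 0.178). Per kilobase of exon, Nos3 exceeded Nos2 by 8.62, 10.5 and 9.92 times in EC-KO 1, 2 and 3 and by 5.07, 6.23 and 5.82 times in FL 1, 2 and 3, without overlap (exact permutation p = 0.1, adjusted 0.178).

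The gene of the cofactor pathway's first step was the 1 gene of the 10 that rose. Gch1 (ENSMUSG00000037580, chromosome 14, 47391352 to 47426870, minus strand), GTP cyclohydrolase 1, which commits GTP to tetrahydrobiopterin synthesis, was at 140, 136 and 118 CPM in EC-KO 1, 2 and 3 and at 79.0, 103 and 86.7 CPM in FL 1, 2 and 3. The groups did not overlap, and the 3 EC-KO libraries lay close together. The means were 132 ± 11.8 and 89.7 ± 12.5 CPM in EC-KO and FL (SD, n = 3 each), with a log2 fold change of 0.55 ± 0.16 (SE, adjusted p = 0.0359 in edgeR). The call rested on nearly all libraries, since the adjusted p was 0.118, 0.0568, 0.132, 0.0582 and 0.149 without EC-KO 1, EC-KO 3, FL 1, FL 2 and FL 3. It was 0.0573 without the filter on low counts.

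Of the 8 other genes of tetrahydrobiopterin synthesis and recycling, 1 rose and 1 fell (list median -0.11, all tested genes 0.03), a number of calls near the 27.1% of all tested genes. Pcbd1, the dehydratase that starts recycling of the spent cofactor, averaged 1.94 ± 0.237 CPM in EC-KO and 0.527 ± 0.331 CPM in FL (SD, n = 3 each, log2 fold change 1.90, adjusted p = 0.0168 in edgeR). Qdpr, the reductase that completes that recycling, averaged 11.3 ± 2.16 CPM in EC-KO and 19.2 ± 1.80 CPM in FL (-0.76, adjusted p = 0.0206 in edgeR). Pcbd1 was not called without FL 2 (0.0647), FL 3 (0.0722) or both EC-KO 2 and FL 2 (1.57, adjusted p = 0.0593), and Qdpr not without EC-KO 1, EC-KO 3, FL 2 or FL 3 (adjusted p 0.0502 to 0.0796). The later synthesis enzymes Pts (0.45) and Spr (-0.38) did not pass the test. The list held 1 call without EC-KO 1, EC-KO 3 or both EC-KO 2 and FL 2, and 0 without FL 2 or FL 3. Calls over all tested genes numbered 2832, 3422, 2626 and 2547 without EC-KO 1, EC-KO 3, FL 2 and FL 3. Without both EC-KO 2 and FL 2 they numbered 5330.

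Of 21 partners and regulators of nitric oxide synthase 7 were lower and 1 was higher (list median -0.33), beside 13.5% of all tested genes in each direction. The flow-induced transcription factor Klf2, a known activator of Nos3 transcription, averaged 106 ± 21.8 CPM in EC-KO and 229 ± 9.10 CPM in FL (-1.11 ± 0.19 SE, adjusted p = 0.00387 in edgeR). The depalmitoylating enzyme Lypla1 fell by 0.86 on the log2 scale. The caveolar inhibitor Cav1 (-1.28), the trafficking partner Nostrin (-0.98) and the calmodulin gene Calm3 (-0.87) fell too. So did the kinase subunit Prkaa1 (-0.74) and the nitrosoglutathione reductase Adh5 (-0.60), and all these were named after their values were seen. The adjusted p in edgeR was 0.0184, 0.0455, 0.0148 and 0.0249 for Cav1, Nostrin, Calm3 and Adh5. Cygb, a globin that consumes nitric oxide, rose (20.4 ± 8.24 CPM in EC-KO, 5.04 ± 0.801 CPM in FL, 2.02 ± 0.31, SE; adjusted p = 0.00252 in edgeR). Cygb is known from fibroblasts, and 8 of 12 fibroblast markers rose in the same libraries; their part in this result was not tested. The number of calls in this list was 4 without EC-KO 1 or FL 3, 5 without EC-KO 3 or FL 2 and 13 without EC-KO 2. Klf2, Lypla1 and Cygb stayed called without each library in turn, so the calls lost were among Cav1, Nostrin, Calm3, Prkaa1 and Adh5. Over all tested genes, 2832, 2547, 3422, 2626 and 6740 were called without EC-KO 1, FL 3, EC-KO 3, FL 2 and EC-KO 2, against 5029.

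Both arginases, which split arginine into ornithine and urea, were lower in EC-KO libraries. Arg1 (ENSMUSG00000019987, chromosome 10, 24791119 to 24803382, minus strand), the cytosolic form typical of alternatively activated macrophages, was at 4.85, 3.17 and 4.42 CPM in EC-KO 1, 2 and 3 and at 27.6, 15.5 and 9.93 CPM in FL 1, 2 and 3. The EC-KO libraries were uniformly low and the FL libraries spread widely, without overlap. The log2 fold change was -2.09 ± 0.37 (SE, adjusted p = 0.00468), the largest fall among the 10 genes in the fit over all 6 libraries, and it stayed called without each library in turn (adjusted p up to 0.0193 in edgeR). Arg1 equalled 0.1504%, 0.0804% and 0.130% of the macrophage and monocyte marker sum in EC-KO libraries and 0.261%, 0.164% and 0.1506% in FL libraries. These ranges barely parted, between EC-KO 1 and FL 3 (exact permutation p = 0.1, adjusted 0.178).

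Arg2 (ENSMUSG00000021125, chromosome 12, 79177551 to 79203075, plus strand), the mitochondrial arginase, was at 27.2, 29.3 and 30.1 CPM in EC-KO 1, 2 and 3 and at 45.3, 88.3 and 103 CPM in FL 1, 2 and 3. The EC-KO values were nearly equal, and FL 1 was the FL library nearest to them. The log2 fold change was -1.45 ± 0.28 (SE, adjusted p = 0.00633), called without each library in turn (adjusted p up to 0.0326 in edgeR). Relative to markers Arg2 did not part the groups. It equalled 0.842%, 0.743% and 0.885% of the macrophage and monocyte sum in EC-KO 1, 2 and 3 and 0.428%, 0.936% and 1.57% in FL 1, 2 and 3 (log2 difference -0.06, exact permutation p = 0.8). Its share of the endothelial sum overlapped too (log2 difference -0.16, exact permutation p = 0.5). Exons of Vti1b and of the antisense locus Gm48780, both on the opposite strand, share 19.96% and 8.12% of the exon bases of Arg2. Vti1b did not pass the test (0.14, adjusted p = 0.575 in edgeR). Gm48780 was lower (1.52 ± 0.446 CPM in EC-KO, 8.14 ± 3.95 CPM in FL, adjusted p = 0.00503 in edgeR). The ratio of Arg2 to Arg1 per kilobase was 8.74, 14.4 and 10.6 in EC-KO 1, 2 and 3 and 2.56, 8.88 and 16.2 in FL 1, 2 and 3. The groups overlapped because FL 1 had the lowest and FL 3 the highest ratio of all (exact permutation p = 0.7).

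Of 14 tested genes of arginine supply and methylation, 3 rose and 3 fell (18 listed, list median -0.16), beside 13.5% of all tested genes in each direction. Slc7a1, a cationic amino acid transporter of endothelium, averaged 201 ± 22.0 CPM in EC-KO and 66.0 ± 9.47 CPM in FL (1.61 ± 0.17, SE; adjusted p = 0.000661 in edgeR). Its relative Slc7a2, an arginine carrier of macrophages and liver, averaged 86.4 ± 24.5 CPM in EC-KO and 302 ± 151 CPM in FL (-1.81 ± 0.37 SE, adjusted p = 0.00825 in edgeR). The carriers differed in opposite directions, each without overlap between groups.

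A pair of enzymes that use ornithine, the product of arginase, were higher. Oat, ornithine aminotransferase, averaged 185 ± 19.3 CPM in EC-KO and 97.5 ± 4.82 CPM in FL (0.92, adjusted p = 0.00356 in edgeR). Odc1, ornithine decarboxylase of polyamine synthesis, averaged 1317 ± 163 CPM in EC-KO and 582 ± 116 CPM in FL (1.18, adjusted p = 0.00429 in edgeR). Ass1, which rebuilds arginine from citrulline, averaged 47.4 ± 11.1 CPM in EC-KO and 75.3 ± 6.24 CPM in FL (-0.67, adjusted p = 0.0319 in edgeR). Its call was lost without EC-KO 3, FL 1, FL 2 or FL 3 (0.0660 to 0.0900) and with upper-quartile (0.0521) or library-size (0.0723) scaling. The transporter Slc7a7 fell as well (-0.68, adjusted p = 0.0351 in edgeR), and like Odc1 was named after its value was seen. The list held 6 calls, 5 without EC-KO 1 or FL 1, and 4 without EC-KO 3, FL 2 or FL 3. Over all tested genes 2832, 4366, 3422, 2626 and 2547 were called in those fits, against 5029. Without both EC-KO 2 and FL 2 the list held 5 calls (5330 over all tested genes). Slc7a1, Slc7a2, Oat and Ass1 stayed called there, so Odc1 and Slc7a7 were not both called. Prmt1, the main source of asymmetric dimethylarginine, was at 0.43 and did not pass the test (adjusted p = 0.0727 in edgeR).

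The dimethylarginine hydrolases, which break down methylated arginines, differed from each other. Ddah1 (ENSMUSG00000028194, chromosome 3, 145464430 to 145600032, plus strand) was at 19.1, 44.7 and 18.3 CPM in EC-KO 1, 2 and 3 and at 47.7, 68.6 and 86.0 CPM in FL 1, 2 and 3. The groups did not overlap, but EC-KO 2 came close to FL 1 while EC-KO 1 and EC-KO 3 lay far below. The log2 fold change was -1.30 ± 0.36 (SE, adjusted p = 0.0287 in edgeR), and the call was lost without EC-KO 1 (0.105), EC-KO 3 (0.0780), FL 2 (0.0751) or FL 3 (0.0995) and without the filter on low counts (0.0919). Without both EC-KO 2 and FL 2, chosen after seeing the data, Ddah1 was at -1.86 (adjusted p = 0.00355 in edgeR). Its share of the endothelial marker sum overlapped between groups, at 0.429%, 0.542% and 0.406% in EC-KO 1, 2 and 3 and at 0.436%, 0.543% and 0.577% in FL 1, 2 and 3 (log2 difference -0.18, exact permutation p = 0.2, adjusted 0.32).

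Ddah2 (ENSMUSG00000007039, chromosome 17, 35278011 to 35281071, plus strand) was at 49.3, 101 and 46.6 CPM in EC-KO 1, 2 and 3 and at 40.8, 53.1 and 59.3 CPM in FL 1, 2 and 3. The groups overlapped, with EC-KO 2 far above the rest, and the test was not passed (0.36 ± 0.30 SE, adjusted p = 0.397), with the sign turned without EC-KO 2 (-0.12, adjusted p = 0.607 in edgeR) and without EC-KO 2 and FL 2 (-0.081, adjusted p = 0.793 in edgeR). The ratio of Ddah2 to Ddah1 per kilobase, which does not depend on how libraries are scaled, was 6.43, 5.66 and 6.36 in EC-KO 1, 2 and 3 and 2.14, 1.94 and 1.72 in FL 1, 2 and 3. Here EC-KO 2 lay with its group, and the difference of 1.67 on the log2 scale far exceeded the SDs of 0.10 in EC-KO and 0.16 in FL (exact permutation p = 0.1, adjusted 0.178).

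**Figure D2:**
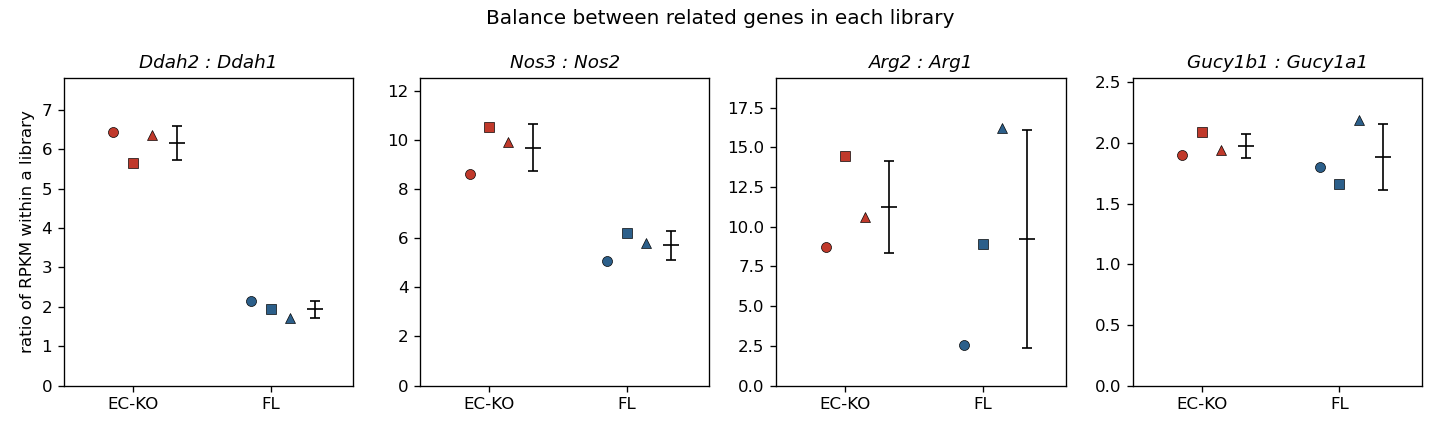
Ratio of RPKM (CPM per kilobase of exon) of related genes within each library, for 3 EC-KO libraries (red) and 3 FL libraries (blue), with mean ± SD and axes from 0. Ddah2 to Ddah1 and Nos3 to Nos2 parted without overlap, Arg2 to Arg1 spread from 2.56 to 16.2 in FL, and Gucy1b1 to Gucy1a1 stayed between 1.66 and 2.19.

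Both subunits of soluble guanylate cyclase, the nitric oxide receptor that makes cyclic GMP, were lower, with FL means 3.27 and 3.05 times those of EC-KO. Their genes are neighbours on chromosome 3, both on the minus strand. Gucy1a1, the alpha subunit (ENSMUSG00000033910, 81999734 to 82053096), was at 10.8, 21.3 and 13.1 CPM in EC-KO 1, 2 and 3 and at 40.0, 60.7 and 47.4 CPM in FL 1, 2 and 3. Gucy1b1, the heme-binding beta subunit (ENSMUSG00000028005, 81939313 to 81981996), was at 11.6, 25.1 and 14.3 CPM in EC-KO 1, 2 and 3 and at 40.6, 56.7 and 58.3 CPM in FL 1, 2 and 3. Neither gene overlapped between groups, and EC-KO 2 was the highest EC-KO library for both. The log2 fold changes were -1.71 ± 0.27 and -1.61 ± 0.29 (SE, adjusted p = 0.00311 and 0.00538 in edgeR). Both stayed called without each library in turn (adjusted p up to 0.0152 and 0.0236).

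The proportion of the subunits did not part the groups. The ratio of Gucy1b1 to Gucy1a1 per kilobase was 1.90, 2.09 and 1.94 in EC-KO 1, 2 and 3 and 1.80, 1.66 and 2.19 in FL 1, 2 and 3, with overlap (exact permutation p = 0.5). Soluble guanylate cyclase works as a dimer of the alpha and beta chains. The plot of ratios shows the smallest difference between groups for this pair, 0.08 on the log2 scale.

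Since both subunits were lower, bases before their starts are shown, 5′ to 3′ on the minus strand, from RefSeq (GRCm38.p6) and kept to bases outside GENCODE exons. The windows are chr3:82145790-82145900 for Gucy1a1 (111 bases) and chr3:82074712-82074961 for Gucy1b1 (250 bases). These positions are on GRCm38.p6. The gene positions from the count table do not match that build, so the sets of positions cannot be set side by side. Capitals mark matches on either strand to the GC box GGGCGG or the CCAAT box (CCAAT, read as ATTGG on the other strand).
Gucy1a1: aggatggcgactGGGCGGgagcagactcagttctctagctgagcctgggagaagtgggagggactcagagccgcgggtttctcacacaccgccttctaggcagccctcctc
Gucy1b1: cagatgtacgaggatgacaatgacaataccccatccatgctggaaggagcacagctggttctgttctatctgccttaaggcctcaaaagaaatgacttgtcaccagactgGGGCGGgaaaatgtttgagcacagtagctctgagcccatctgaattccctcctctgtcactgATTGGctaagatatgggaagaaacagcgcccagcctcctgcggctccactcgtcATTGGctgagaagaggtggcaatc

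Each window held 1 GC box, a motif present in 11.7% of all 32851 promoter windows cut to the length and place of the Gucy1a1 window and in 32.7% of those of the Gucy1b1 length. The Gucy1b1 window also held 2 CCAAT boxes (33.8% of windows hold 1 or more). The core GCGTG of the dioxin response element, bound by the aryl hydrocarbon receptor, and the TATA box TATAAA were in neither window. Of windows of the Gucy1b1 length 28.2% and 12.4% hold them, and of those of the Gucy1a1 length 12.2% and 5.65%. A match describes these letters and nothing of what binds there.

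Relative to summed markers of smooth muscle and pericytes and of endothelium, the share of the cyclase was lower in EC-KO libraries, without passing the test. Gucy1b1 equalled 3.67%, 5.45% and 3.92% of the smooth muscle and pericyte marker sum in EC-KO 1, 2 and 3 and 6.18%, 8.75% and 6.44% in FL 1, 2 and 3. Gucy1a1 equalled 3.43%, 4.63% and 3.58% of it in EC-KO libraries and 6.09%, 9.36% and 5.23% in FL libraries. Against the endothelial sum Gucy1b1 was at 0.259%, 0.305% and 0.318% in EC-KO libraries and at 0.371%, 0.449% and 0.391% in FL libraries. None of these ratios overlapped between groups, and each reached the exact permutation p of 0.1 that is the smallest possible (0.178 adjusted over the 16 ratios).

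**Figure D3:**
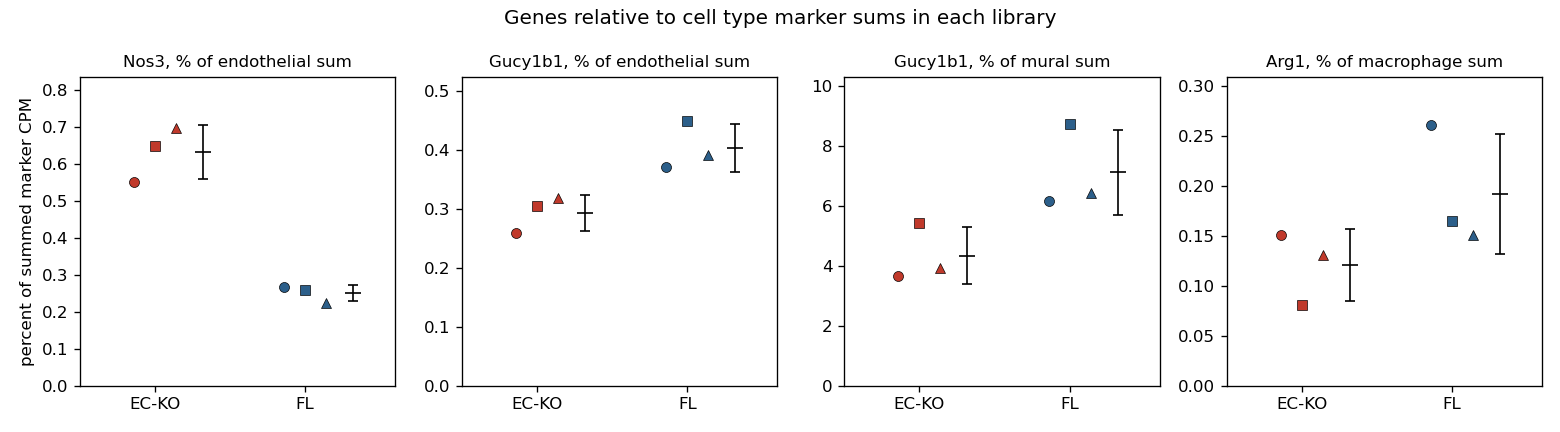
Level of Nos3, Gucy1b1 and Arg1 as a percent of the summed CPM of a marker list in each library (mural means smooth muscle and pericyte), for 3 EC-KO libraries (red) and 3 FL libraries (blue), with mean ± SD and axes from 0. Nos3 lies at 0.551% to 0.696% of the endothelial sum in EC-KO and at 0.225% to 0.266% in FL, while the shares of Gucy1b1 and Arg1 are lower in EC-KO.

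Of 9 tested genes (14 listed) for other makers, ligands and receptors of cyclic GMP signalling, 1 rose and 2 fell (list median 0.46), beside 13.5% of all tested genes in each direction. Calls numbered 1 without EC-KO 1 or FL 3, where 2832 and 2547 of all tested genes were called. Npr3, the natriuretic peptide clearance receptor, was at 33.6, 114 and 25.5 CPM in EC-KO 1, 2 and 3 and at 260, 669 and 508 CPM in FL 1, 2 and 3. The groups lay far apart, with a log2 fold change of -3.06 ± 0.59 (SE, adjusted p = 0.00670 in edgeR, 0.0942 without the filter on low counts). Npr1, the receptor cyclase for atrial natriuretic peptide, averaged 76.4 ± 31.5 CPM in EC-KO and 183 ± 36.6 CPM in FL (-1.26, adjusted p = 0.0129 in edgeR). It was just short of a call without EC-KO 1 (0.0518) or FL 3 (0.0517). Npr2, the receptor cyclase for C-type natriuretic peptide, averaged 32.5 ± 15.0 CPM in EC-KO and 16.4 ± 2.08 CPM in FL (0.99, adjusted p = 0.0389 in edgeR). EC-KO 2 was the highest for Npr2 as well as for fibroblast markers, and the call was lost without EC-KO 1, EC-KO 2, FL 1, FL 2 or FL 3 (adjusted p 0.0514 to 0.128) and in limma-voom (0.0560). The other 11 genes of the list, among them the natriuretic peptides and the receptor cyclases of gut and rods, reached at most 1.96 CPM in a library, and none of the 6 tested was called.

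Pde5a (ENSMUSG00000053965, chromosome 3, 122522596 to 122653023, plus strand), the phosphodiesterase that sildenafil inhibits, was at 17.8, 36.8 and 19.9 CPM in EC-KO 1, 2 and 3 and at 45.9, 67.6 and 56.1 CPM in FL 1, 2 and 3. The groups did not overlap, and EC-KO 2 was again the nearest to FL. The log2 fold change was -1.19 ± 0.29 (SE, adjusted p = 0.0165 in edgeR), and the adjusted p was 0.0618, 0.0515 and 0.0640 without EC-KO 1, EC-KO 3 and FL 2. Relative to endothelial markers Pde5a did not part the groups, with 0.399%, 0.446% and 0.442% of the sum in EC-KO libraries and 0.420%, 0.535% and 0.376% in FL libraries (exact permutation p = 0.9). Its share of the smooth muscle and pericyte sum overlapped as well (exact permutation p = 0.5). The shares of Gucy1a1 and Gucy1b1 did part the groups, at an adjusted p of 0.178 in the exact permutation test.

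Among 12 other tested genes of phosphodiesterase families that hydrolyse cyclic GMP, 3 fell and 0 rose (15 listed, list median -0.09). The list includes Pde6 subunits that are not catalytic. The number of calls was near the 27.1% of all tested genes. Pde9a, which is specific for cyclic GMP, averaged 30.9 ± 13.5 CPM in EC-KO and 95.4 ± 31.8 CPM in FL (-1.63 ± 0.34 SE, adjusted p = 0.00926 in edgeR). Pde3a, whose cyclic AMP activity is inhibited by cyclic GMP, averaged 100.1 ± 37.8 CPM in EC-KO and 219 ± 25.9 CPM in FL (-1.13, adjusted p = 0.0138 in edgeR). Pde1b, a calmodulin-dependent form named after its value was seen, fell by 0.75 on the log2 scale. Calls in the list numbered 1 without FL 3, where Pde3a was at an adjusted p of 0.0525, and 5 without EC-KO 2. Over all tested genes 2547 were called without FL 3 and 6740 without EC-KO 2, against 5029. The rod genes Pde6a, Pde6b and Pde6g were higher in the 4 libraries with more photoreceptor transcripts. Pde6b, for instance, was at 3.75, 0 and 5.13 CPM in EC-KO 1, 2 and 3 and at 5.31, 0.0611 and 4.45 CPM in FL 1, 2 and 3.

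Among effectors of cyclic GMP, 4 of 17 tested genes were lower and 0 higher (18 listed, list median -0.33), a share of calls below the 27.1% of all tested genes. Prkg1, the main cyclic GMP-dependent kinase of vessels, averaged 9.20 ± 3.71 CPM in EC-KO and 10.3 ± 1.09 CPM in FL and did not pass the test (-0.16 ± 0.28 SE, adjusted p = 0.703 in edgeR, named after its value was seen). The kinase substrate Gtf2i, a transcription factor, averaged 91.2 ± 8.55 CPM in EC-KO and 160 ± 15.3 CPM in FL (-0.81, adjusted p = 0.00676 in edgeR). The cyclic nucleotide exporter Abcc5 averaged 93.8 ± 19.8 CPM in EC-KO and 168 ± 26.6 CPM in FL (-0.84, adjusted p = 0.0171 in edgeR), and was not called without EC-KO 1 (0.0647) or FL 2 (0.0688). Mrvi1, the kinase substrate at the inositol trisphosphate receptor, and the potassium channel subunit Kcnmb1 fell by 0.76 and 0.96 on the log2 scale. Both were named after their values were seen, and neither was called without EC-KO 1, EC-KO 3, FL 1 or FL 3. The calls in this list numbered 1 without EC-KO 1, 2 without EC-KO 3, FL 1, FL 2 or FL 3, and 8 without EC-KO 2. Over all tested genes they numbered 2832 without EC-KO 1 and 2547 to 4366 without EC-KO 3, FL 1, FL 2 or FL 3. Without EC-KO 2 they numbered 6740.

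**Figure D4:**
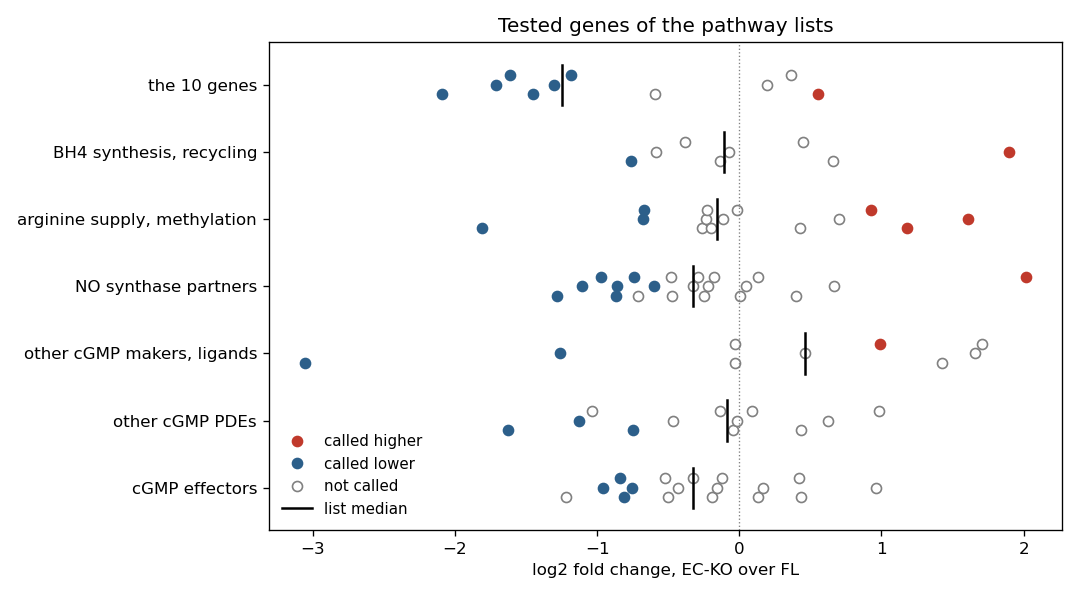
Log2 fold change (EC-KO over FL) of every tested gene of the 10 genes and of the 6 lists of the surrounding pathway, with called genes filled (red higher, blue lower), others open, and a bar at the list median. The median lies at -1.24 for the 10 genes and between -0.33 and 0.46 for the other lists.

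Levels between genes were compared per kilobase of exon (RPKM, from CPM and the exon length in the count table). In EC-KO libraries the order was Ddah2 (41.2 ± 19.3 RPKM), Gch1 (21.0 ± 1.89), Arg2 (20.2 ± 1.05), Nos3 (8.83 ± 3.65), Ddah1 (6.88 ± 3.77), Gucy1b1 (4.33 ± 1.82), Pde5a (2.53 ± 1.06), Gucy1a1 (2.17 ± 0.79), Arg1 (1.86 ± 0.39) and Nos2 (0.895 ± 0.292; SD, n = 3). Neighbours in that order differed by more than the sum of their SDs only between Arg2 and Nos3 and between Arg1 and Nos2. In FL libraries the order was Arg2 (55.3 ± 21.1 RPKM), Ddah2 (32.1 ± 5.90), Ddah1 (16.9 ± 4.81), Gch1 (14.4 ± 2.005), Gucy1b1 (13.2 ± 2.51), Arg1 (7.94 ± 4.06), Nos3 (7.70 ± 0.56), Gucy1a1 (7.08 ± 1.51), Pde5a (5.75 ± 1.10) and Nos2 (1.35 ± 0.07; SD, n = 3). There the neighbours parted only between Ddah2 and Ddah1 and between Pde5a and Nos2. Nos3 was thus higher in the order of EC-KO than in that of FL, at levels that overlapped.

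**Figure D5:**
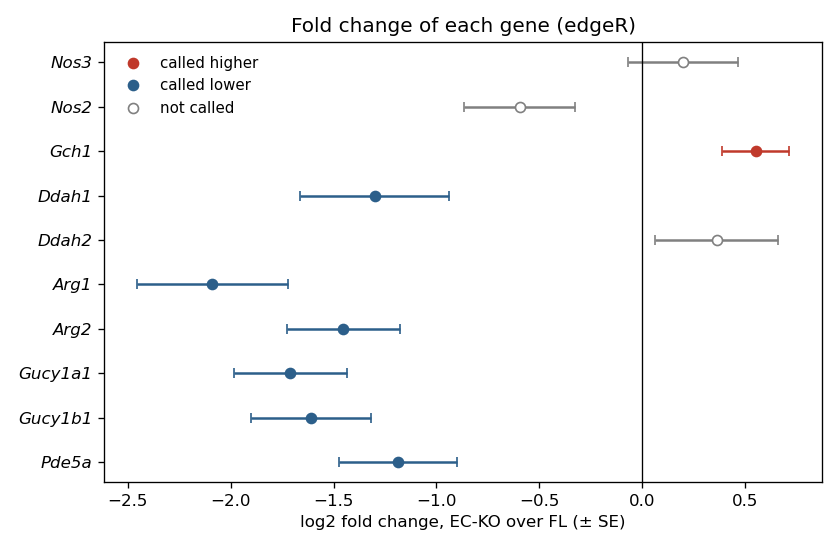
Log2 fold change of each gene (horizontal axis, EC-KO over FL, ± SE) from edgeR over all 6 libraries, filled where the adjusted p is under 0.05. Gch1 lies at 0.55, the 6 genes called lower lie between -2.09 and -1.19, and Nos3, Nos2 and Ddah2 are open.

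Genes whose profile over the 6 libraries lay closest to that of a gene above were found by the root mean square difference of centred log2 CPM, among 12594 genes. For Nos3 these included the lysyl oxidase Loxl3 (difference 0.06) and the exchange factor Psd3 (0.08), both highest in EC-KO 2. For Arg1 they were the myeloid surface genes Adgre4 (0.15), Ms4a6c (0.21) and Ms4a4a (0.22), all highest in FL 1. For Gucy1b1 they were the integrin Itga1 (0.09), the angiotensin receptor Agtr1a (0.09) and the BMP receptor Bmpr2 (0.10). Gucy1a1 (0.13) was in place 14 and Pde5a (0.23) in place 104 for Gucy1b1. These are descriptions over 6 libraries that share the genotype difference.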

How the data were processed

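The authors deposited raw counts per Ensembl gene in 1 table. Its layout is that of featureCounts, per the file headers. STAR 2.7.10b, featureCounts 2.0.3 and the build mm10 stand in the submitters' processing notes, with no role. How alignment was set, which annotation was used and whether strand was counted: not given in the sources used here. Alignment classes were deposited too, as counts: 72.4% to 77.8% of alignments were assigned to genes, and 9.10% to 11.5% were set aside as multimapping. The table's 2 further per-sample columns match no sample and were not used. A table of gene names gave a symbol for 51948 of 56941 identifiers. GENCODE M21 exons were used only to trim the promoter windows.

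Counts were tested with edgeR 4.0.16 (R 4.3.3): filterByExpr (18562 genes kept), TMM scaling, robust quasi-likelihood F test of EC-KO against FL without covariates, two-sided, Benjamini-Hochberg adjustment over all tested genes, threshold 0.05. Standard errors are the absolute log2 fold change over the square root of F, so they carry no information apart from the p-value. The procedure was tested on simulated counts in which few genes were changed, equally up and down. In these data 5029 genes were called, so that test does not cover changes as broad as these. Ratios between genes used exact permutation tests over libraries. The 10 genes and all lists were chosen with earlier results of these data known. Apart from the 10 genes and Fundc1, each pathway list gave up to 2 called genes per direction by smallest adjusted p, and the closest profiles were sought for Nos3, Arg1 and Gucy1b1. A gene that this rule gave for Nos3 is not reported here. Other genes were named after their values were seen. Alternatives were other scalings and filters, DESeq2 1.42.0, limma-voom (limma 3.58.1), glmQLFit without robust estimation, a block for the replicate number, and leaving out libraries. Promoters matched 6 of the 10 genes in the RefSeq table. Figures used Python 3.11.15 and matplotlib 3.10.9.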

Additional observations from a re-analysis of the deposited data

How the results depend on the processing

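Among the 10 genes, Arg1, Arg2, Gucy1a1 and Gucy1b1 were called lower in each of the 16 alternatives. Nos3 turned sign without EC-KO 2 (-0.21) and without both EC-KO 2 and FL 2 (-0.18), as did Ddah2 (-0.12 and -0.081) and, among genes with a profile like that of Nos3, Loxl3 (-0.29 and -0.28) and Psd3 (-0.22 and -0.20). Ranges over leaving out each library were -0.21 to 0.41 for Nos3, -0.12 to 0.55 for Ddah2, -0.29 to 0.32 for Loxl3 and -0.22 to 0.35 for Psd3. The cause was not tested. The omission of both libraries numbered 2 was chosen after seeing the data, and it left 7 genes lower and 1 higher.

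The number of the 10 genes called higher was 0 with no filter and 0 with the replicate number as a block (Gch1 at adjusted p = 0.0573 and 0.0754 in edgeR), and 0 to 1 when each library was left out. The number called lower was 4 to 7 when each library was left out. Called genes over the whole table numbered 5029, and 2547 to 6740 when each library was left out. For tetrahydrobiopterin genes there were 4 calls with upper-quartile scaling, library-size scaling, a filter of 1 CPM in 3 libraries and DESeq2, against 2, 1 without both EC-KO 2 and FL 2, and 0 to 2 when each library was left out. Calls when each library was left out numbered 4 to 13 for synthase partners, 1 to 4 for other cyclic GMP makers, 1 to 5 for other phosphodiesterases and 1 to 8 for effectors, and effectors had 2 with library-size scaling. Fewer libraries entered those fits. The median gene lay at 0.03 with TMM, at 0.11 with upper-quartile scaling and at 0.12 with library-size scaling, and the sign of each of the 10 genes was the same under all 3.

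Taken over all tested genes, same-numbered libraries did not deviate together. The correlation of deviations from group means was 0.05, 0.07 and -0.18 for numbers 1, 2 and 3. Only 1 of 3 EC-KO libraries correlated best with its own number. Rod photoreceptor transcripts, however, were lowest in the library numbered 2 of each group, and a correlation over all genes does not show such a difference in few genes. The block left 3848 genes called. Depth limits Nos2, with 106 to 203 reads per library, and Pcbd1, with 11 to 68.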

Other observations

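Transcripts known from rod photoreceptors of the retina were present, at lower levels in EC-KO 2 and FL 2 than in the other 4 libraries. Gnat1, the rod transducin subunit, was at 8.72, 1.91 and 15.8 CPM in EC-KO 1, 2 and 3 and at 12.7, 0.458 and 11.1 CPM in FL 1, 2 and 3. Arrestin Sag, peripherin Prph2 and the rod phosphodiesterase genes Pde6a, Pde6b and Pde6g were likewise lowest in EC-KO 2 and FL 2. The sum of 14 rod genes, a list written after the data had been seen, was 50.5, 8.78 and 77.7 CPM in EC-KO 1, 2 and 3 and 59.9, 5.22 and 57.4 CPM in FL 1, 2 and 3. High and low libraries were found in both genotypes. The low libraries both carried the number 2.

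Between EC-KO 2 and FL 2, which no label pairs, Gucy1a1 differed by -1.51 and Gucy1b1 by -1.18 on the log2 scale (1 library each, no test). In the other 4 libraries they were at -1.89 and -1.95 (adjusted p = 0.000860 and 0.00120 in edgeR). For Ddah1 the values were -0.62 between EC-KO 2 and FL 2 and -1.86 in the others, and for Nos3 0.71 and -0.18. For Nos2 they were -0.05 and -0.95 (adjusted p = 0.0295 in edgeR for the other 4 libraries). For Gch1 they were 0.40 and 0.62, and for Arg1 -2.29 and -2.02. For Arg2 they were -1.59 and -1.40, for Pde5a -0.88 and -1.45, and for Ddah2 0.93 and -0.081.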
